A study of Capra hircus with 8 samples.

Results

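The skin of cashmere goats was compared with the skin of milk goats at months 3 and 12, the months in which milk goat skin held little hair RNA. Cashmere goats are kept for the fine undercoat that grows from their secondary hair follicles, and milk goats are dairy animals. The comparison takes 4 of the 8 RNA-seq libraries of the series: cashmere goat skin at month 3, cashmere goat skin at month 12, milk goat skin at month 3 and milk goat skin at month 12. The other 4 libraries are cashmere and milk goat skin at months 6 and 9. No treatment or genotype is given for any animal. The labels give each month as an age, whereas the design text speaks of different months, and the sources used here do not settle whether age or calendar month is meant. They also give the tissue as skin while the RNA protocol mentions embryos. The hair and epidermal keratins described here were present in every library. It is not stated whether a library was made from 1 animal or from several, so the p-values measure only the spread between these libraries, which may be partly technical.

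A hair is built by matrix cells at the base of the follicle, which divide and then mature under transcription factors such as HOXC13, FOXN1 and the DLX proteins. The maturing cells fill with hair keratins, which form filaments, and with keratin-associated proteins, which are rich in cysteine or in glycine and tyrosine and tie the filaments together. The inner root sheath around the shaft hardens with its own keratins and with trichohyalin, a protein modified by peptidylarginine deiminases and transglutaminases. Follicles pass through growth, regression and rest, and goats grow and shed the undercoat with the season.

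The deposited counts summed to 7731607 reads in the month 3 and 7480053 reads in the month 12 cashmere goat library, against 11333734 reads at month 3 and 11485295 reads at month 12 in milk goats. The milk goat libraries were the deeper ones in both months, so breed and depth cannot be told apart. Levels are given as CPM, read counts scaled to a common library size with TMM factors. A count of 0 leaves room for up to 3 reads, which stood for 0.244 to 0.395 CPM in these libraries, counting error only. Differences are given as the log2 fold change of cashmere over milk goats from edgeR's quasi-likelihood test, fitted on all 8 libraries with month as a term. The standard error (SE) beside each was derived from that test. It is the absolute log2 fold change divided by the square root of the F value. It restates the test and does not measure the spread between months 3 and 12 by itself. A gene is called where its Benjamini-Hochberg adjusted p over the 14536 tested genes is under 0.05. Ratios within a month compare 1 library with 1 library and have no test. In whole skin, fewer cells of a type and less RNA per cell cannot be told apart. Since months 3 and 12 were set apart because milk goat skin was then poor in hair transcripts, the direction of the hair genes described first was part of the choice and is not independent evidence.

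Cashmere goat skin held more RNA of 239 genes and less RNA of 128 genes than milk goat skin at months 3 and 12. The 367 calls are 2.52% of the genes tested, with 1.64% called higher and 0.881% called lower. The counts of called genes in each list below stand against these shares. At an unadjusted p under 0.05, 2778 genes passed, against 727 that would pass by chance if no gene differed. All 239 higher genes had a ratio above 0 in both months, and all 128 lower genes had a ratio below 0 in both months. The test itself favours this, as months that disagree add to the spread, so this agreement is not separate evidence. The difference was at least 2-fold in both months for 212 of the higher and 98 of the lower genes. At months 6 and 9, 181 of the 239 higher genes also had ratios above 0 in both months. Likewise, 117 of the 128 lower genes had ratios below 0 in both of those months. Without 1 library of month 3 or 12 the effect rests on 1 library of each breed in the other month. The spread then comes only from months 6 and 9. A call kept in such a fit, here or below, therefore does not show that months 3 and 12 repeat each other. Resting on month 3, 98 genes were called without the month 12 cashmere goat library and 465 without the month 12 milk goat library. Resting on month 12, 1753 genes were called without the month 3 cashmere goat library and 2976 without the month 3 milk goat library. The prior degrees of freedom, by which edgeR weighs the spread shared by all genes, were 7760 in the last of these fits, against 6.58 with all 8 libraries.

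The months 3 and 12 shared no library, and their ratios can be set side by side for each gene. Over the 14536 genes, the ratio had a standard deviation of 0.61 on the log2 scale at month 3 and of 0.99 at month 12. The ratios had a Pearson correlation of 0.482 and a Spearman correlation of 0.388 across genes, which are not independent replicates, and 62.49% of genes had the same sign in both months. At least 2-fold higher RNA in cashmere goats was seen for 616 genes (4.24%) at month 3 and for 1448 genes (9.96%) at month 12. Of these, 343 genes (2.36%) passed 2-fold in both months, which is 55.68% of the month 3 genes and 23.69% of the month 12 genes. At least 2-fold lower RNA was seen for 518 genes (3.56%) at month 3 and 1643 genes (11.3%) at month 12, and 242 genes (1.66%) passed in both. In 87 genes the months differed in direction, each by 2-fold or more.

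**Figure D1:**
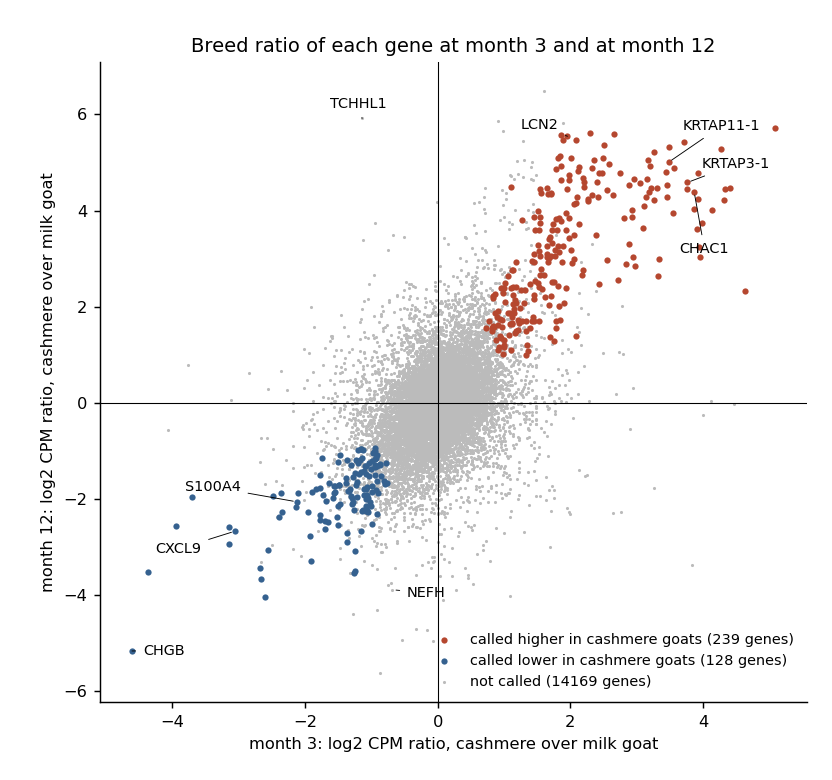
Log2 CPM ratio of cashmere over milk goat skin for each of the 14536 tested genes, month 3 on the horizontal and month 12 on the vertical axis, each ratio from 1 library per breed. The 239 genes called higher lie in the upper right and the 128 called lower in the lower left, while TCHHL1 had ratios of -1.14 at month 3 and 5.92 at month 12.

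The keratin-associated proteins, which bind the keratin filaments of the hair shaft, had the largest median difference of the 34 gene lists apart from a list of red blood cell genes with 1 tested member. All 4 members that the first gene table names under these symbols were called higher in cashmere goats, and the median of their log2 fold changes was 4.02, against 0.01 over all tested genes. KRTAP3-1, a high-sulfur protein of the hair cortex, had 286 CPM at month 3 and 620 CPM at month 12 in cashmere goats, against 20.9 and 25.7 CPM in milk goats. The 2 breeds did not overlap, and the log2 fold change was 4.18 ± 0.38 (SE; adjusted p = 0.00176). KRTAP11-1, another sulfur-rich protein of the cortex, had 443 and 930 CPM in cashmere goats, against 39.5 and 28.7 CPM in milk goats at months 3 and 12. Its log2 fold change was 4.25 ± 0.43 (adjusted p = 0.0032), again with no overlap.

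KAP8, a keratin-associated protein rich in glycine and tyrosine, had 33.4 and 406 CPM in cashmere goats at months 3 and 12, against 7.48 and 13.4 CPM in milk goats. Its cashmere goat values lay far apart, but both exceeded both milk goat values (log2 fold change 3.59 ± 0.62, adjusted p = 0.0269). KRTAP15-1 had 8.47 and 63.1 CPM in cashmere goats, against 2.2 and 1.14 CPM in milk goats. It was the lowest of the 4 and was called with a log2 fold change of 3.86 ± 0.72 (adjusted p = 0.0356). KRTAP3-1 and KRTAP11-1 were called without any 1 of the 8 libraries. KAP8 was not called without the month 12 cashmere or the month 6 milk goat library (highest adjusted p 0.051), and KRTAP15-1 was not called without any 1 of the 4 libraries of months 6 and 9 (highest adjusted p 0.0678).

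The second deposited gene table, which counts another gene set in the same 8 libraries, names more of the family by product. It had 25 tested keratin-associated protein genes, and 24 of them were called higher in cashmere goats, against 313 of all 15683 tested genes of that table (2.0%). All 25 had ratios above 0 in both months. Their log2 fold changes were 3.06 to 6.67, with a median of 4.06, and the median ratio was 2.98 at month 3 and 4.91 at month 12. The largest rested on 2.73 and 3.13 CPM in cashmere goats at months 3 and 12, against 0 and 0.0494 CPM in milk goats. The gene not called had 0.182 and 0.0696 CPM in cashmere goats, against 0 CPM in milk goats in both months. Per transcript length, the authors' FPKM values of KRTAP11-1 were 336 and 639 in cashmere goats at months 3 and 12, against 27 and 17.2 in milk goats, and those of KRT39, a hair keratin, were 11.6 and 19.9, against 1.11 and 0.55, so KRTAP11-1 was the more abundant in all 4 libraries. Many of these genes are near-identical copies, between which the counting may have split reads, so single members are uncertain.

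**Figure D2:**
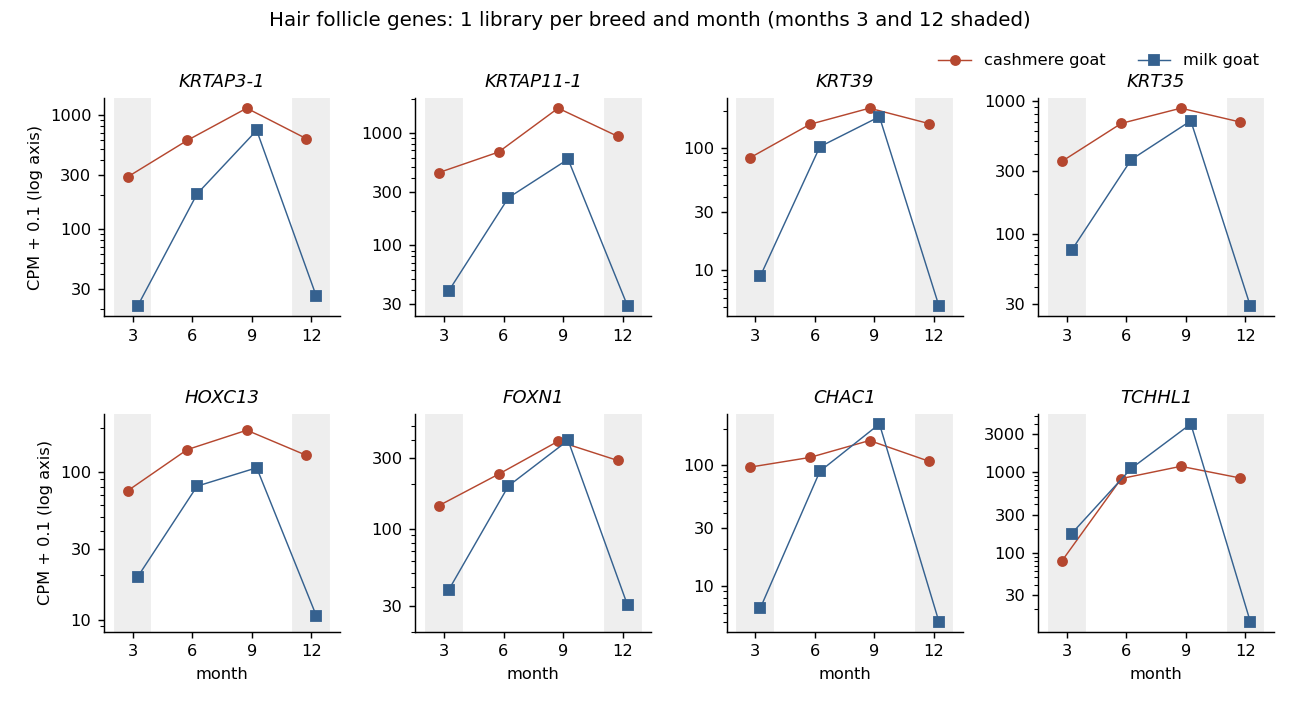
CPM + 0.1 on a log axis against month for 8 hair follicle genes, with 1 point per library, red circles for cashmere goats and blue squares for milk goats; months 3 and 12 are shaded. In milk goats KRTAP3-1 had 20.9 and 25.7 CPM at months 3 and 12 but 203 and 733 CPM at months 6 and 9, whereas the cashmere goat values lay between 286 and 1148 CPM.

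Many of the called genes had a LOC symbol, a placeholder for a gene without an assigned name. Such genes made up 10.05% of the genes tested but 34.31% of those called higher (82 genes) and 23.44% of those called lower (30 genes). The gene order of the RefSeq annotation of assembly ARS1.2 placed many of them beside the named hair genes. This grouping was made after the values were seen and has no test. Between SMARCE1 and EIF1 lies an unbroken run of keratin, keratin-associated and LOC genes that holds KRTAP3-1, KRT25 to KRT27, KRT32, KRT35, KRT36 and KRT39. Of its 59 tested genes, 37 were called higher and 0 lower in cashmere goats by edgeR, against 1.64% and 0.881% of all genes. Between TIAM1 and CLDN8 lies a shorter run that holds KRTAP11-1, KAP8 and KRTAP15-1, and 13 of its 15 tested genes were called higher and 0 lower.

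The 2 runs together held 55 tested LOC genes, of which 42 were called higher with log2 fold changes of 2.79 to 5.56, each at least 2-fold in both months. These 42 are 51.22% of all LOC genes called higher. LOC102181431, in the shorter run, had 56.1 and 121 CPM in cashmere goats at months 3 and 12, against 1.46 and 2.11 CPM in milk goats. It had the largest log2 fold change of both runs, 5.56 ± 0.34 (adjusted p = 0.000924). LOC108638299, in the longer run, had 90 and 214 CPM in cashmere goats, against 4.47 and 5.36 CPM in milk goats (4.83 ± 0.33, adjusted p = 0.000924). The files used here do not name the product of either gene. The 22 genes of the longer run that were not called include the epidermal keratin KRT10, with a log2 fold change of -0.62 ± 0.52 (adjusted p = 0.559), and KRT14, a keratin of the basal layer and outer root sheath, with 0.28 ± 0.43 (adjusted p = 0.766).

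**Figure D3:**
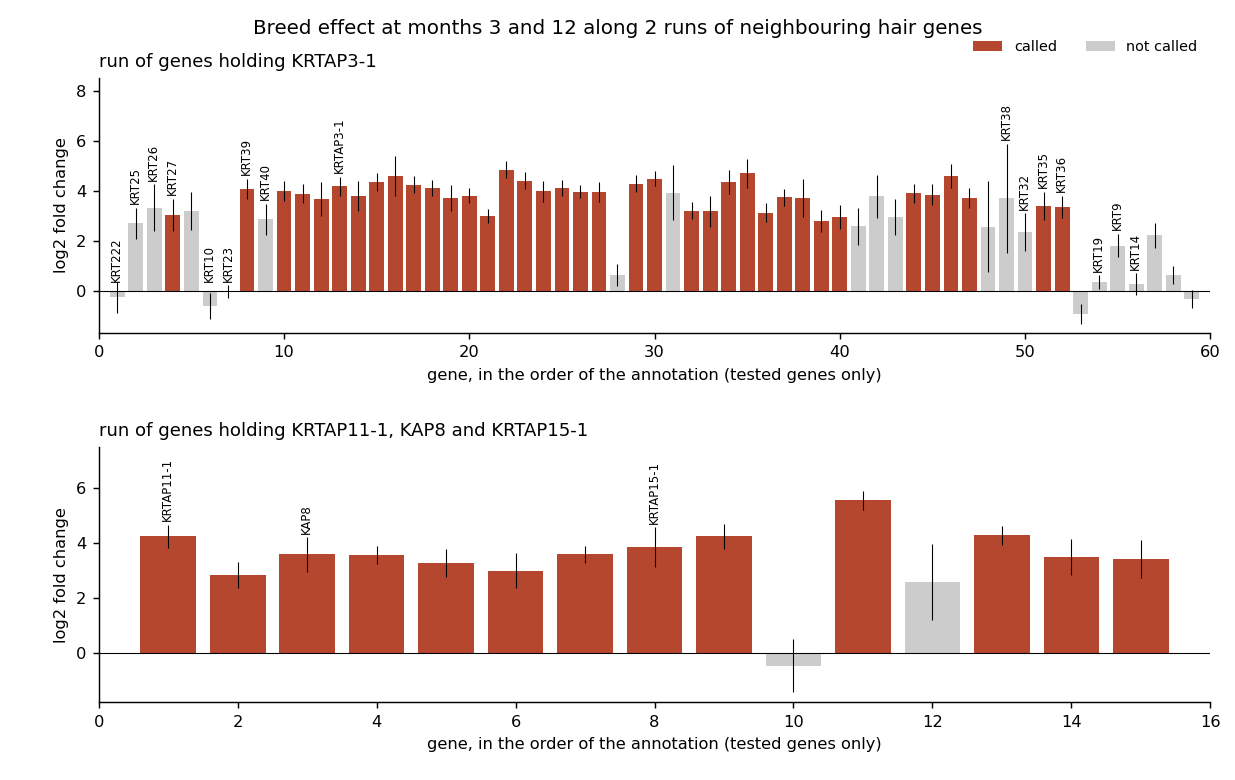
Log2 fold change of cashmere over milk goats at months 3 and 12 for the tested genes of 2 runs of neighbouring genes, in annotation order; bars give the edgeR estimate, lines 1 SE, red bars are called and grey ones are not. Of 59 genes in the upper run 37 were called higher, and of 15 in the lower run 13 were; unlabelled bars are LOC genes.

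The hair shaft keratins, which form the filaments of the cortex and cuticle, had log2 fold changes with a median of 3.12. In all 8 tested members both cashmere goat values lay above both milk goat values, an ordering seen for 23.6% of all genes. Of the 8, 4 were called higher and 0 lower. KRT39, a type I hair keratin, had 83.1 and 157 CPM in cashmere goats at months 3 and 12, against 8.87 and 5.01 CPM in milk goats (4.07 ± 0.41, adjusted p = 0.0032). KRT36, also type I, had 34.8 and 39.5 CPM in cashmere goats, against 4.8 and 2.55 CPM in milk goats (3.36 ± 0.43, adjusted p = 0.0101). KRT35, a type I keratin of the early cortex, had 352 and 694 CPM in cashmere goats, against 75.7 and 28.7 CPM in milk goats (3.39 ± 0.56, adjusted p = 0.022). KRT84, a type II hair keratin, had 53 and 147 CPM in cashmere goats, against 18.1 and 9.93 CPM in milk goats (2.70 ± 0.50, adjusted p = 0.0352).

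The members that missed the threshold were KRT32, KRT38, KRT40 and KRT82, with log2 fold changes of 2.34 to 3.69 and adjusted p of 0.0553 to 0.395. The list's median ratio was 1.88 at month 3 and 4.38 at month 12. The summed level of the 8 keratins was 783 and 1543 CPM in cashmere goats at months 3 and 12, against 239 and 68.1 CPM in milk goats. At months 6 and 9 it was 2024 and 1995 CPM in cashmere goats and 1415 and 2338 CPM in milk goats. Without the month 12 cashmere goat library 1 of the 8 was called, and the number called without each other library was 4 to 8.

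The regulators of the hair matrix followed with smaller differences. Of 29 tested members, 9 were called higher and 0 lower, against 1.64% and 0.881% of all genes. The median log2 fold change of the members was 1.09. In 20 both cashmere goat values lay above both milk goat values, against 23.6% of all genes, and in 3 both lay below, against 21.7% of all genes. HOXC13, a homeodomain factor needed for hair keratin expression in mouse and human, had 74.7 and 130 CPM in cashmere goats at months 3 and 12, against 19.4 and 10.5 CPM in milk goats (2.77 ± 0.38, adjusted p = 0.0128). FOXN1, the factor lost in the nude mouse, had 143 and 290 CPM in cashmere goats, against 38.5 and 30 CPM in milk goats (2.58 ± 0.36, adjusted p = 0.0128). Both were called without any 1 of the 8 libraries.

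DLX2, a homeodomain factor, had 6.75 and 10.5 CPM in cashmere goats, against 1.38 and 0.615 CPM in milk goats (3.07 ± 0.54, adjusted p = 0.0277). The related DLX1 and DLX3 and the forkhead factor FOXE1 were called with log2 fold changes of 2.34 to 2.46. LEF1, which carries the Wnt signal to DNA, had 62.1 and 80.3 CPM in cashmere goats, against 28.1 and 11.6 CPM in milk goats (1.95 ± 0.37, adjusted p = 0.038). BAMBI, a membrane protein that dampens TGF-beta and BMP signals, had a log2 fold change of 2.52 ± 0.48 (adjusted p = 0.0382), and KRT35, which is also on the list of shaft keratins, makes the ninth call.

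Members that did not pass include MSX2 (1.85 ± 0.40, adjusted p = 0.0519) and the signal SHH, which had 3.43 and 10.7 CPM in cashmere goats at months 3 and 12, against 6.75 and 0.615 CPM in milk goats (1.16 ± 0.96, adjusted p = 0.555). SHH was the lower in cashmere goats at month 3 and the higher at month 12. The median ratio of the 29 regulators was 0.61 at month 3 and 1.72 at month 12, so the difference was the smaller at month 3.

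Among 21 tested genes for cross-linking and adhesion of hair cells, 6 were called higher and 0 lower, against 1.64% and 0.881% of all genes. DSG4, the desmoglein that holds hair matrix and cortex cells together, had 115 and 227 CPM in cashmere goats at months 3 and 12, against 22.2 and 6.68 CPM in milk goats (3.67 ± 0.58, adjusted p = 0.0208). PADI1, a peptidylarginine deiminase that turns arginine into citrulline, had 32.1 and 73.3 CPM in cashmere goats, against 5.61 and 2.46 CPM in milk goats (3.62 ± 0.49, adjusted p = 0.0128). PADI3, a second such enzyme that acts on trichohyalin, had 65.9 and 138 CPM in cashmere goats, against 19 and 4.57 CPM in milk goats (3.25 ± 0.64, adjusted p = 0.0405). S100A3, a cysteine-rich calcium-binding protein of the hair cuticle, had 41.9 and 80.8 CPM in cashmere goats, against 10.7 and 3.52 CPM in milk goats (3.15 ± 0.52, adjusted p = 0.0228).

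TGM3, a transglutaminase of the follicle, and SELENBP1, a selenium-binding protein, differed less, with log2 fold changes of 1.28 ± 0.27 (adjusted p = 0.0474) and 1.22 ± 0.22 (adjusted p = 0.0319). The median of the whole list was 0.65. Desmosome genes that epidermis and follicle share, such as DSP (0.40 ± 0.48, adjusted p = 0.692) and DSC3 (0.38 ± 0.29, adjusted p = 0.514), did not pass. DSG4, PADI1 and S100A3 were called without any 1 of the 8 libraries, while PADI3 lost its call without any 1 library of months 6 and 9, TGM3 without 6 of the 8 libraries and SELENBP1 without 6 of the 8.

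CHAC1, an enzyme that breaks down glutathione, had the smallest adjusted p of the 5 marker genes. It had 96.2 and 107 CPM in cashmere goats at months 3 and 12, against 6.43 and 4.92 CPM in milk goats. The values of each breed lay close together, the breeds did not overlap, and the log2 fold change was 4.17 ± 0.31 (adjusted p = 0.000996). It was called without any 1 of the 8 libraries, with log2 fold changes of 3.90 to 4.45. At months 6 and 9 CHAC1 had 116 and 160 CPM in cashmere goats and 88.7 and 219 CPM in milk goats, a log2 fold change of -0.04 (adjusted p = 0.963).

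Of 19 tested genes for cysteine and glutathione metabolism, CHAC1 and 2 others were called higher and 0 lower. CTH, the enzyme that releases cysteine from cystathionine, had 12.8 and 15.6 CPM in cashmere goats at months 3 and 12, against 1.63 and 1.93 CPM in milk goats (2.98 ± 0.31, adjusted p = 0.00375). Its ratio was alike in both months, 2.83 and 2.88 on the log2 scale. GCLC, the catalytic subunit of the enzyme that starts glutathione synthesis, had 60.5 and 80 CPM in cashmere goats, against 30.4 and 39.2 CPM in milk goats (1.01 ± 0.20, adjusted p = 0.0393). CBS, which makes cystathionine, had 0.90 ± 0.21 (adjusted p = 0.0667), and SLC7A11, the cystine transporter, had 3.33 ± 0.77 (adjusted p = 0.0668) on 0.0879 to 3.03 CPM. The median of the list was 0.64, and GCLC lost its call without the month 12 cashmere goat library or any 1 library of months 6 and 9.

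The inner root sheath genes differed more between the months than the shaft genes did. Their median ratio was 1.19 at month 3 and 4.16 at month 12. Of 8 tested members 2 were called higher and 0 lower, against 1.64% and 0.881% of all genes. KRT27, a type I keratin of the sheath, had 1317 and 2964 CPM in cashmere goats at months 3 and 12, against 402 and 145 CPM in milk goats (3.03 ± 0.64, adjusted p = 0.0495). KRT74, a type II keratin of the sheath, had 113 and 256 CPM in cashmere goats, against 41.1 and 17.3 CPM in milk goats (2.65 ± 0.52, adjusted p = 0.0393). TCHH, trichohyalin, had 18540 and 65460 CPM in cashmere goats, against 8724 and 2458 CPM in milk goats, and did not pass (2.91 ± 1.12, adjusted p = 0.207). KRT27 lost its call without 6 of the 8 libraries and KRT74 without 5, and with RLE factors 0 of the 8 were called.

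TCHHL1, trichohyalin-like 1, had ratios of opposite sign in the 2 months. At month 3 it had 79.2 CPM in the cashmere goat library, against 174 CPM in the milk goat library. At month 12 it had 851 CPM in the cashmere goat library, against 13.9 CPM in the milk goat library. Its log2 ratio was -1.14 at month 3 and 5.92 at month 12, and the fit over both gave 2.35 ± 1.97 (adjusted p = 0.56). Its range over the 4 months was 79.2 to 1190 CPM in cashmere goats and 13.9 to 3992 CPM in milk goats.

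**Figure D4:**
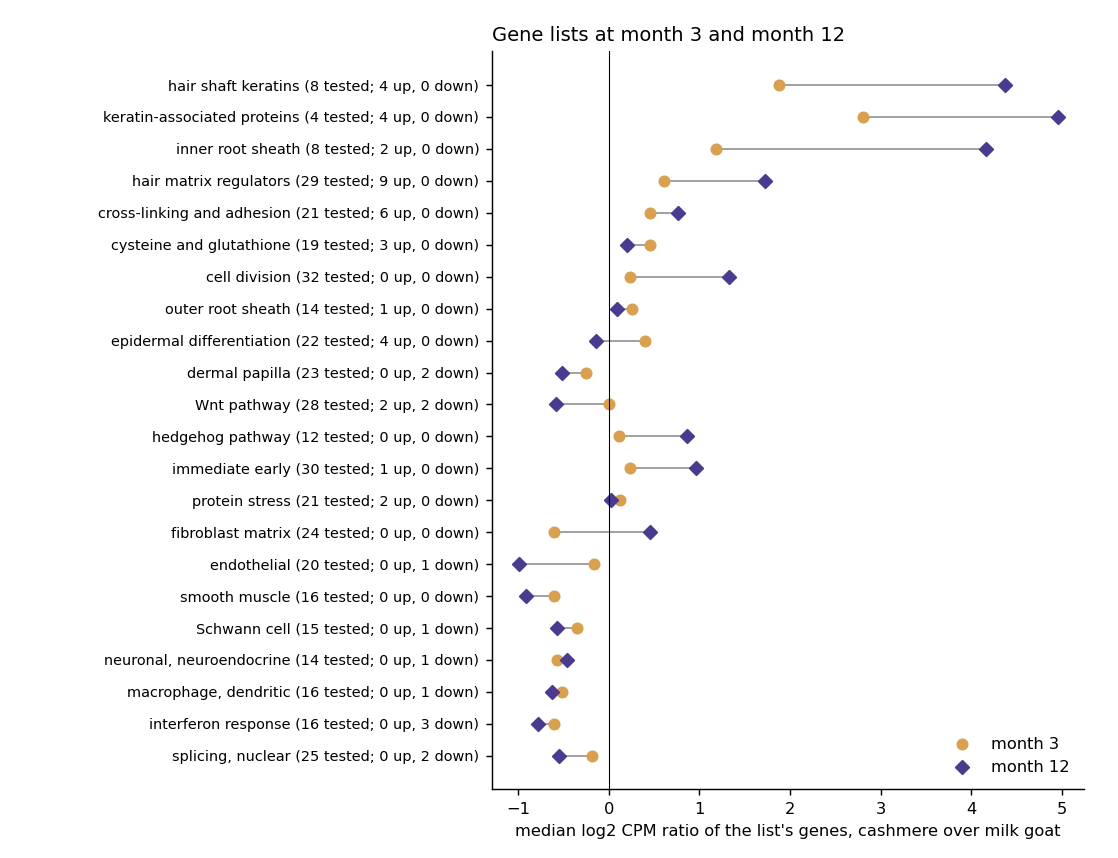
Median log2 CPM ratio of cashmere over milk goat skin over the tested genes of 22 lists, circles for month 3 and diamonds for month 12, each from 1 library per breed; the labels give the number tested, called higher and called lower. Hair shaft keratins (1.88 and 4.38), keratin-associated proteins (2.81 and 4.95) and inner root sheath genes (1.19 and 4.16) lie to the right in both months, and smooth muscle genes (-0.60 and -0.91) to the left in both.

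Other epithelial lists had smaller medians. KRT6A, a keratin of the companion layer of the follicle, was the only gene called among 14 of the outer root sheath, with 415 and 1127 CPM in cashmere goats at months 3 and 12, against 152 and 239 CPM in milk goats (1.85 ± 0.32, adjusted p = 0.0277). Of 22 genes of epidermal differentiation, 4 were called higher and 0 lower, while the median of the list was 0.02. IVL, involucrin of the cornified envelope, had 363 and 963 CPM in cashmere goats, against 109 and 96.2 CPM in milk goats (2.53 ± 0.50, adjusted p = 0.0405). RPTN, repetin, which is related to trichohyalin, had 344 and 371 CPM in cashmere goats, against 110 and 43 CPM in milk goats (2.37 ± 0.43, adjusted p = 0.0336).

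KLK7, a protease of the horny layer, had a log2 fold change of 1.75 ± 0.34 (adjusted p = 0.0393) and KRT2, a keratin of the upper epidermis, of 1.16 ± 0.23 (adjusted p = 0.0405). KRT1, the main keratin of the differentiating epidermis, had 8141 and 6036 CPM in cashmere goats, against 9009 and 21070 CPM in milk goats (-0.97 ± 0.56, adjusted p = 0.379). The summed level of the epidermal list was 28760 and 23760 CPM in cashmere goats and 27820 and 52390 CPM in milk goats, so the month 12 milk goat library stood apart; the part of this in the other results was not tested. KRT6A and KLK7 kept their call without 2 of the 8 libraries, KRT2 without 3, IVL without 5 and RPTN without 6. At months 6 and 9 the log2 fold change was -0.74 for IVL, 0.10 for RPTN, 1.03 for KLK7 and 0.20 for KRT2. None of them was called then. IVL had 862 and 890 CPM in cashmere goats at months 6 and 9, against 875 and 2439 CPM in milk goats.

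Among 32 genes of cell division, 31 had a log2 fold change above 0, with a median of 0.80. With edgeR, 0 of the 32 were called, while 16 had an unadjusted p under 0.05, all higher, against 19.11% of all genes. DESeq2 called 2 and limma on FPKM called 5 or 7, all higher. The median ratio was 0.24 at month 3 and 1.33 at month 12. The difference thus lay mainly at month 12. Without the month 3 cashmere goat library the median log2 fold change was 1.34. That fit rests on the month 12 pair alone, so it restates the month 12 ratio and adds no support. MKI67, the proliferation antigen Ki-67, had 127 and 306 CPM in cashmere goats at months 3 and 12, against 119 and 55.4 CPM in milk goats (1.28 ± 0.55, adjusted p = 0.255). TOP2A, also on this list, had 93.6 and 227 CPM in cashmere goats, against 114 and 103 CPM in milk goats (0.43 ± 0.37, adjusted p = 0.571). Its cashmere goat value was thus the lower at month 3. Of the hedgehog pathway, 0 of 12 genes were called by edgeR, and 4 had an unadjusted p under 0.05, against 19.11% of all genes. DESeq2 called 1 and limma called 2.

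Several other genes ranked high by size or by their smaller ratio. GPRC5D, an orphan receptor found in cells that form hard keratin, had 188 and 392 CPM in cashmere goats at months 3 and 12, against 28 and 14.2 CPM in milk goats (3.76 ± 0.48, adjusted p = 0.0101). LRRC15, a membrane protein with leucine-rich repeats, had 459 and 838 CPM in cashmere goats, against 86.5 and 34.7 CPM in milk goats (3.49 ± 0.52, adjusted p = 0.0176). MT4, a metallothionein of stratified epithelia, had 39 and 76 CPM in cashmere goats, against 4.96 and 5.01 CPM in milk goats (3.45 ± 0.31, adjusted p = 0.00176). CSDC2, a cold-shock domain protein that binds RNA, had 34.9 and 66.5 CPM in cashmere goats, against 5.78 and 2.9 CPM in milk goats (3.49 ± 0.42, adjusted p = 0.00643). These 4 genes were called without any 1 of the 8 libraries.

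Some of the largest fold changes rested on few reads in milk goats. LCN2, the iron-scavenging lipocalin, had 16 and 162 reads in cashmere goats at months 3 and 12, against 4 and 3 reads in milk goats. Its log2 ratio from these reads was 2.49 at month 3 (exact 95% interval 0.86 to 4.53) and 6.34 at month 12 (4.77 to 8.63), with a fitted log2 fold change of 4.86 ± 0.72 (adjusted p = 0.0175). PRSS27, a serine protease, had 5.95 and 29.5 CPM in cashmere goats, against 0.488 and 0.703 CPM in milk goats (4.65 ± 0.52, adjusted p = 0.00416). ETNPPL, an enzyme that degrades phosphoethanolamine, had 8.35 and 22.3 CPM in cashmere goats, against 1.38 and 0.615 CPM in milk goats (3.76 ± 0.62, adjusted p = 0.022).

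SLC4A1, the anion exchanger of red blood cells, was the single tested gene of the red blood cell list, with 18 and 55 reads in cashmere goats, against 2 reads in each milk goat library (4.57 ± 0.63, adjusted p = 0.0128). LCN2, ETNPPL and SLC4A1 were not called without the month 12 cashmere goat library (adjusted p 0.242, 0.14 and 0.179). DUSP5, a phosphatase that switches off ERK, was the only call among 30 immediate early genes, with 26.1 and 48.4 CPM in cashmere goats, against 9.84 and 16.3 CPM in milk goats (1.49 ± 0.21, adjusted p = 0.0128). ASNS, asparagine synthetase, was called beside CHAC1 among 21 genes of protein and amino acid stress, with 31.1 and 50.5 CPM in cashmere goats, against 15.5 and 22.5 CPM in milk goats (1.09 ± 0.20, adjusted p = 0.036). Without the month 12 cashmere goat library neither DUSP5 (adjusted p 0.0751) nor ASNS was called, and ASNS also lost its call without any 1 library of months 6 and 9 (highest adjusted p 0.196).

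Of 16 tested genes of the interferon response, 3 were called lower in cashmere goats and 0 higher, against 0.881% and 1.64% of all genes. The list's median log2 fold change was -0.66. CXCL9, a chemokine induced by interferon-gamma that attracts T cells, had 1.03 and 1.19 CPM in cashmere goats at months 3 and 12, against 10 and 8.62 CPM in milk goats (-3.06 ± 0.40, adjusted p = 0.0102). CXCL10, a related chemokine, had 2 and 0 reads in cashmere goats, against 44 and 15 reads in milk goats. Its log2 ratio at month 3 was -3.97 (exact 95% interval -7.06 to -2.03), and the upper limit of the interval at month 12 was -1.26 (fit adjusted p = 0.0393). MX1, an antiviral GTPase, had 13.2 and 12.7 CPM in cashmere goats, against 34.5 and 40.4 CPM in milk goats (-1.53 ± 0.30, adjusted p = 0.0393).

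Of the 16 genes, 13 had ratios below 0 in both months, and 10 had both cashmere goat values below both milk goat values, an ordering seen for 21.7% of all genes. At months 6 and 9 the median of the list was 0.09. CXCL9 was called without any 1 of the 8 libraries, MX1 without 4 of the 8 and CXCL10 without 2. Among 16 macrophage and dendritic genes 1 was called lower and 0 higher, with a median of -0.53. AIF1, a macrophage protein, had 9.95 and 9.88 CPM in cashmere goats, against 24.5 and 29 CPM in milk goats (-1.42 ± 0.30, adjusted p = 0.0497), and it lost its call without 5 of the 8 libraries. The summed level of the macrophage and dendritic list was 464 and 411 CPM in cashmere goats and 746 and 571 CPM in milk goats, and its part in the interferon result was not tested.

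The lower genes with the largest or most even differences came from several classes. S100A4, a calcium-binding protein of fibroblasts and immune cells, had 329 and 239 CPM in cashmere goats at months 3 and 12, against 1434 and 999 CPM in milk goats (-2.09 ± 0.31, adjusted p = 0.0168). FMO2, a flavin-containing monooxygenase, had 36.6 and 73.1 CPM in cashmere goats, against 158 and 269 CPM in milk goats (-1.99 ± 0.24, adjusted p = 0.00647). ZBTB20, a zinc finger repressor, had 31.1 and 30.8 CPM in cashmere goats, against 101 and 171 CPM in milk goats (-2.08 ± 0.28, adjusted p = 0.0116). In milk goats S100A4 also exceeded the cashmere goat values at months 6 and 9, with 396 and 233 CPM in cashmere goats and 1337 and 510 CPM in milk goats. The log2 fold change at those months was -1.44 for S100A4, -1.16 for FMO2 and -0.76 for ZBTB20, none of them called.

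LSAMP, a cell adhesion protein of neurons, had 14 and 7.38 CPM in cashmere goats, against 52.7 and 74.4 CPM in milk goats (-2.59 ± 0.37, adjusted p = 0.0143). CASC1 had 11.1 and 12.4 CPM in cashmere goats, against 42.6 and 85.2 CPM in milk goats (-2.36 ± 0.26, adjusted p = 0.00416). NEXN, an actin-binding protein of muscle, had 96.2 and 119 CPM in cashmere goats, against 304 and 663 CPM in milk goats (-2.07 ± 0.38, adjusted p = 0.0343). CFB, complement factor B, had 8.24 and 5.53 CPM in cashmere goats, against 24.7 and 20.9 CPM in milk goats (-1.74 ± 0.29, adjusted p = 0.0228). At months 6 and 9 the log2 fold change was -1.68 for LSAMP, -1.18 for CASC1, -2.12 for NEXN and 0.29 for CFB, none of them called. The other genes named by the rule (C15H11orf65, CELF4, CLEC1A, FAM184A, KLHL33, TNFSF8 and ZC3H6) had log2 fold changes of -1.67 to -2.34 and adjusted p of 0.0217 to 0.0451. Of these, CELF4 had a log2 fold change above 0 in the second gene table. FMO2 and CASC1 were called without any 1 of the 8 libraries, while S100A4, ZBTB20, LSAMP and NEXN were not called without the month 12 cashmere goat library (adjusted p 0.0973, 0.0761, 0.0503 and 0.299), and CFB and those 7 lost their call without 4 to 6 of the 8.

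**Figure D5:**
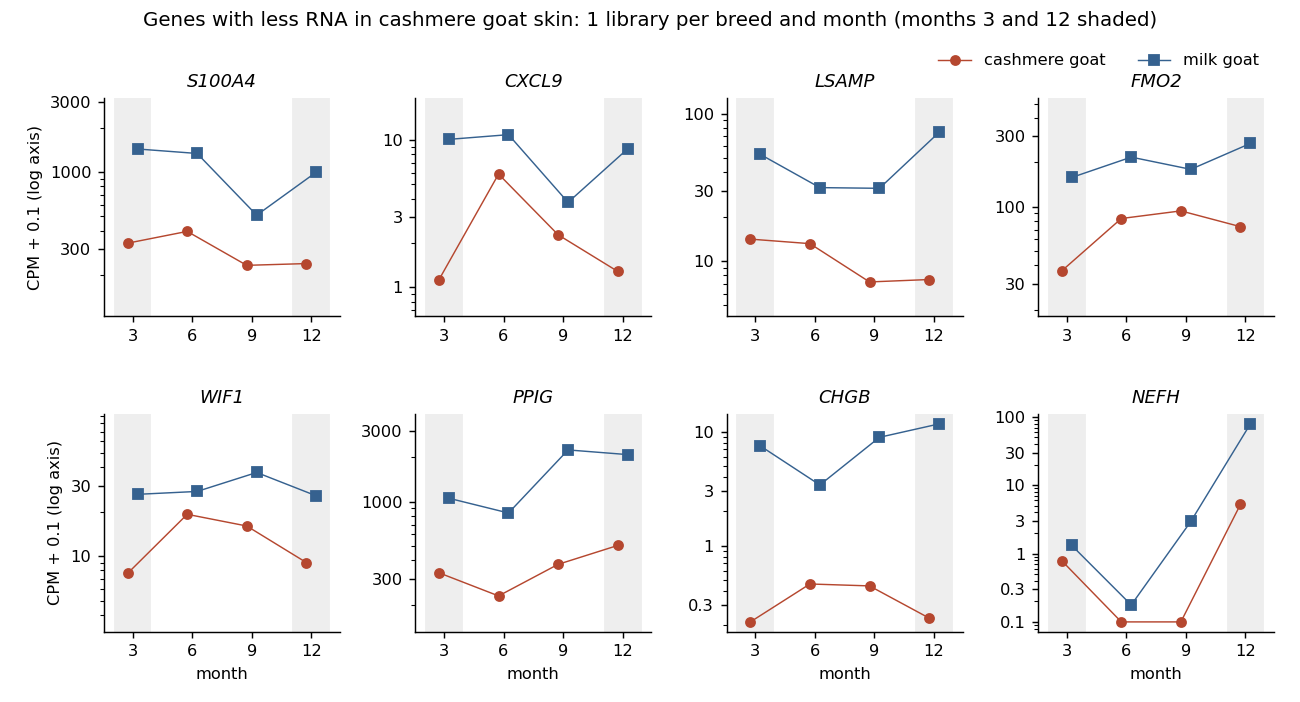
CPM + 0.1 on a log axis against month for 8 genes with lower values in cashmere goats, with 1 point per library, red circles for cashmere goats and blue squares for milk goats; months 3 and 12 are shaded. S100A4 had 329 and 239 CPM in cashmere goats at months 3 and 12, against 1434 and 999 CPM in milk goats, while NEFH reached 78.9 CPM in 1 milk goat library; NEFH was not called.

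In the Wnt pathway, calls went both ways, with 2 of 28 tested genes higher and 2 lower, against 1.64% and 0.881% of all genes. WNT11, a Wnt ligand, was higher, with 18.3 and 32.7 CPM in cashmere goats at months 3 and 12, against 7.97 and 4.13 CPM in milk goats (2.06 ± 0.42, adjusted p = 0.0453), as was LEF1. WIF1, a secreted protein that binds and blocks Wnt ligands, was lower, with 7.55 and 8.96 CPM in cashmere goats, against 26.2 and 25.6 CPM in milk goats (-1.65 ± 0.27, adjusted p = 0.022). DKK2, a secreted protein that blocks the Wnt co-receptor, had 18.8 and 24.8 CPM in cashmere goats, against 48.7 and 57.1 CPM in milk goats (-1.29 ± 0.23, adjusted p = 0.0307). These inhibitors are also on the list of 23 dermal papilla genes, where they were the only calls, and the median of that list was -0.31. AXIN2, a general target of the pathway, had 31.2 and 32.3 CPM in cashmere goats, against 32.9 and 26.3 CPM in milk goats (0.11 ± 0.21, adjusted p = 0.815). WIF1 kept its call without 5 of the 8 libraries, and WNT11, LEF1 and DKK2 without 3.

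Among 14 tested neuronal and neuroendocrine genes 1 was called lower and 0 higher. CHGB, a protein of secretory granules, had 1 read in each cashmere goat library at months 3 and 12, against 91 and 132 reads in the milk goat libraries. Its log2 ratio was -6.02 at month 3 (exact 95% interval -11.3 to -3.50) and -6.46 at month 12 (-11.8 to -3.96), with an adjusted p of 0.00344 that held without any 1 library. At months 6 and 9 CHGB had 3 reads in each cashmere goat library and 43 and 96 reads in the milk goat libraries.

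NEFH, the heavy neurofilament subunit, was not called. It had 0.686 and 5.14 CPM in cashmere goats at months 3 and 12, against 1.22 and 78.9 CPM in milk goats, and its highest value was that of the month 12 milk goat library (-3.21 ± 0.66, adjusted p = 0.0542). From 6 and 15 reads at month 3 the log2 ratio of NEFH was -0.83 (exact 95% interval -2.48 to 0.62), and from 39 and 897 reads at month 12 it was -3.94 (-4.44 to -3.48). Some skeletal muscle RNA was also higher in the month 12 milk goat library. ACTA1, skeletal muscle actin, had 0.458 and 0.922 CPM in cashmere goats, against 0.488 and 34.6 CPM in milk goats at months 3 and 12. NEB, nebulin, went the other way at month 12, with 34 and 71.7 CPM in cashmere goats, against 55.5 and 52.7 CPM in milk goats. TNNI1, a troponin, had 9.84 and 7.78 CPM in cashmere goats, against 14.7 and 15.3 CPM in milk goats. The 17 skeletal muscle genes in the table, of which 10 were tested, summed to 60.3 and 108 CPM in cashmere goats and 87.1 and 189 CPM in milk goats, and 5 were at 0 in some library. The part of muscle tissue in the NEFH values was not tested.

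Among 20 endothelial genes 1 was called lower and 0 higher with all 8 libraries. ERG, an endothelial transcription factor, had 45.3 and 25.6 CPM in cashmere goats, against 77.8 and 60.7 CPM in milk goats (-1.01 ± 0.21, adjusted p = 0.0481). The endothelial list had a median of -0.63 with 19 of 20 below 0. The list's median ratio was -0.17 at month 3 and -0.99 at month 12, so the difference lay mainly at month 12. ERG kept its call without 2 of the 8 libraries.

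All 16 smooth muscle genes had log2 fold changes below 0, with a median of -0.73, and in 13 both cashmere goat values lay below both milk goat values, against 21.7% of all genes. With edgeR 0 of the 16 were called, while 12 had an unadjusted p under 0.05, all lower, against 19.11% of all genes. DESeq2 called 5 and limma called 2, all lower. The list's median ratio was -0.60 at month 3 and -0.91 at month 12. DES, desmin of muscle filaments, had 211 and 186 CPM in cashmere goats at months 3 and 12, against 441 and 942 CPM in milk goats (-1.70 ± 0.40, adjusted p = 0.0667). The summed level of the list was 5546 and 4494 CPM in cashmere goats and 8960 and 12070 CPM in milk goats. The median at months 6 and 9 was -0.55.

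Of 25 genes for splicing and other nuclear functions, 2 were called lower and 0 higher, and the median was -0.28. PPIG, a nuclear cyclophilin, had 329 and 505 CPM in cashmere goats at months 3 and 12, against 1055 and 2087 CPM in milk goats (-1.86 ± 0.33, adjusted p = 0.0294). ANKRD12, a nuclear protein with ankyrin repeats, had 842 and 888 CPM in cashmere goats, against 2346 and 3805 CPM in milk goats (-1.79 ± 0.35, adjusted p = 0.0396). At months 6 and 9 neither was called, with log2 fold changes of -2.22 for PPIG (adjusted p = 0.0903) and -1.82 for ANKRD12 (adjusted p = 0.139). PPIG lost its call without 4 of the 8 libraries and ANKRD12 without 6. The 25 genes summed to 10890 and 10980 CPM in cashmere goats and 16440 and 23340 CPM in milk goats, and the part of RNA quality in this was not tested.

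A few genes differed between the breeds in opposite ways at months 3 and 12 or mainly in 1 of them, and none of them was called. COL6A5, a chain of type VI collagen, had 16.6 and 100 CPM in cashmere goats at months 3 and 12, against 36.4 and 9.32 CPM in milk goats. FOSB, an immediate early transcription factor, had 4.12 and 51.4 CPM in cashmere goats, against 6.67 and 4.4 CPM in milk goats. LYG2, a goose-type lysozyme, had 58.9 and 126 CPM in cashmere goats, against 23.8 and 3.6 CPM in milk goats, and KRT26, an inner root sheath keratin, had 91.1 and 373 CPM, against 37.3 and 8.35 CPM. In these 4 the month 12 ratio exceeded the month 3 ratio.

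The reverse was seen for CA4, a membrane-bound carbonic anhydrase, with 60.2 and 3.03 CPM in cashmere goats, against 12.8 and 9.06 CPM in milk goats. CHGA, a granule protein related to CHGB, had 35.3 and 1.71 CPM in cashmere goats, against 30.3 and 22.9 CPM in milk goats. UNC79, a subunit of a sodium leak channel, had 11.2 and 1.32 CPM in cashmere goats, against 3.34 and 12 CPM in milk goats, and GPR3, an orphan receptor, had 10.5 and 3.03 CPM, against 7.65 and 38.2 CPM. Each of these values is from 1 library.

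In 15 of the 34 lists, which include cell division, the hedgehog pathway, smooth and skeletal muscle, fibroblast matrix, fat, sebaceous gland, melanocytes, lymphocytes, mast cells, sweat gland, hormone and clock genes and oxidative phosphorylation, edgeR called 0 genes. Of their 212 distinct tested genes, 27.83% had an unadjusted p under 0.05, against 19.11% of all genes, DESeq2 called 13 and limma on FPKM called 22 or 23. Among the fibroblast genes COL1A1, collagen I, had 3685 and 736 CPM in cashmere goats at months 3 and 12, against 9921 and 538 CPM in milk goats (-0.49 ± 0.75, adjusted p = 0.762). Its values differed more between months than between breeds.

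Whether the breed difference at months 3 and 12 departed from that at months 6 and 9 was tested as the difference of the 2 breed effects. It passed for 2 genes (0.0138%): CHAC1, with a difference of 4.21 ± 0.40 (adjusted p = 0.0453), and LOC108633210, with -4.20 ± 0.43 (adjusted p = 0.0453). At an unadjusted p under 0.05, 665 genes passed, against 727 that chance would give, while DESeq2 called 88. KRT39, with a difference of 3.65 (adjusted p = 0.0739), MT4, with 2.71 (adjusted p = 0.082), and KRTAP3-1, with 3.08 (adjusted p = 0.0903), did not pass. TMEM231, a protein of the base of the cilium, had 29.5 and 55.6 CPM in cashmere goats at months 3 and 12, against 9.52 and 12 CPM in milk goats, and a difference of 2.71 (adjusted p = 0.0573).

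In the other direction KRT4, a keratin of mucosal epithelium, had 1.72 and 1.85 CPM in cashmere goats at months 3 and 12, against 3.09 and 3.08 CPM in milk goats, and 23.2 and 18.6 CPM at months 6 and 9 in cashmere goats, against 3.31 and 1.38 CPM in milk goats. Its difference was -4.01 (adjusted p = 0.0583). SPINK7, a protease inhibitor, ASPN, a small matrix proteoglycan, SELE, the endothelial E-selectin, and CFB had differences of -1.60 to -3.15 (adjusted p 0.139 to 0.207). At months 6 and 9 themselves 8 genes (0.0550%) were called by edgeR, and 5 of them were also called at months 3 and 12.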

How the data were processed

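Polyadenylated RNA of goat skin was sequenced with directional paired-end libraries, per the labels' protocols, with 1 library per breed and month. The authors deposited raw read counts per gene for 18815 genes, FPKM values for the same genes, and a second table of raw counts for 20780 genes of another gene set. Per the submitters' processing notes Bowtie2 was used; its role and version, the counting tool and the genome build are not stated there, so no coordinates are printed. FPKM values, deposited by the authors and scaled by gene length and library size, were used for 1 alternative test with a pseudocount of 1 or 0.1. Columns of the second count table were matched to those of the first by breed and month in their names, and each of the 8 correlated best with its own name.

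Counts were tested with edgeR 4.0.16 (R 4.3.3): filterByExpr on breed by season pair, TMM factors, and a quasi-likelihood F test with month and a breed effect for each season pair (months 3 and 12, months 6 and 9), leaving 2 residual degrees of freedom. Months 6 and 9 thus add to the estimate of spread and to the choice of genes tested, but do not enter this breed effect directly. With only the 4 libraries 14194 genes were tested. Month is a term because 1 library of each breed shares it, which is a sampling time and not an animal; across genes the change from month 3 to month 12 in cashmere goats and in milk goats had a Pearson correlation of 0.1. Ratios within a month used a prior count of 2. Intervals for genes with few reads are exact binomial ones given both libraries' reads and cover counting error only, as reads amplified by PCR and lacking molecular identifiers may copy 1 molecule. The tests were run on simulated data first. DESeq2 1.42.0 and limma 3.58.1 were alternatives, with other scalings, filters and designs.

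The members and gene lists were chosen with earlier results of these data known. Genes named are the 5 markers, the 10 called genes a direction with the largest fold change at 5 CPM or more, the 12 a direction with the largest smaller ratio of both months at 100 reads or more per month, up to 4 called members of each list or else its 2 most abundant, and the 5 a direction that differed most between season pairs or between months 3 and 12. Other list members, the LOC genes and the genes with RefSeq neighbours were named after their values were seen. Results for some genes are not reported here.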

Additional observations from a re-analysis of the deposited data

Results flagged for a closer look

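Months 3 and 12 were set apart because milk goat skin was then poor in hair transcripts, and CHAC1 is 1 of the markers chosen with this pattern known, so the test for it restates that choice and is not independent evidence. CHAC1 was flagged because its breed effect at months 3 and 12 differed from that at months 6 and 9, by 4.2052 on the log2 scale in a test of the difference itself (edgeR, adjusted p = 0.0453). It had 96.2 and 107 CPM in cashmere goats at months 3 and 12, against 6.43 and 4.92 CPM in milk goats, and 116 and 160 CPM at months 6 and 9 in cashmere goats, against 88.7 and 219 CPM in milk goats. The adjusted p of the difference was over 0.05 without any 1 of the 4 libraries of months 6 and 9 (0.0602 to 0.344), without the month 12 cashmere goat library (0.0586), with RLE factors (0.0601), at a mean of at least 5 CPM (0.0929) and with no replicate block (0.276), and its size was 3.15 to 4.68 over the alternatives.

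LOC108633210, a protein-coding gene whose product the files do not name, was flagged by the same test with a difference of -4.1963 (adjusted p = 0.0453). It had 13.8 and 1.58 CPM in cashmere goats at months 3 and 12, against 47.7 and 9.49 CPM in milk goats, and 40.9 and 48.1 CPM at months 6 and 9 in cashmere goats, against 12.2 and 8.28 CPM in milk goats. The cashmere goat value was thus the lower at months 3 and 12 and the higher at months 6 and 9. The adjusted p was over 0.05 in the same alternatives (0.0586 to 0.916), and the size was -3.84 to -4.71 over the alternatives.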

How the results depend on the processing

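The count of called genes depended on the setting. The 367 calls became 832 with library totals, 904 with no filter, 193 at a mean of at least 5 CPM, 107 with only the 4 libraries, 627 in the second gene table, 792 with DESeq2, and 797 and 871 with limma on log2(FPKM + 1) and log2(FPKM + 0.1). Without the month term that pairs the breeds (no replicate block) there were 96 calls and 0 for the difference between season pairs. Leaving out 1 library gave 98 to 2976 calls for the breed effect: 1753, 190, 149 and 98 when the cashmere goat library of month 3, 6, 9 or 12 was left out, and 2976, 127, 149 and 465 for the milk goat library of those months. For the difference it gave 392, 1, 0 and 0 calls, and 1148, 0, 0 and 147, in the same order. The 2 genes that differed between season pairs became 0 with RLE factors, 146 with library totals, 103 with no filter, 0 at a mean of at least 5 CPM, 11 in the second table, 88 with DESeq2, and 90 and 135 with limma. The share of calls that were higher was 65.12%, and it was 52.32% with no filter, 52.65% with DESeq2, 49.92% in the second table and 78.12% with no replicate block. The 585 genes past 2-fold in both months became 374 at a mean of at least 5 CPM, 903 in the second table, 255 with log2(FPKM + 1) and 204 past 3-fold. The median of all genes was 0.01, and 0.12 and 0.17 with FPKM. Of 108 named genes 65 were called; 22 of them with no replicate block, 28 with only the 4 libraries, and all 65 with DESeq2. Directions reversed, with a call in 1 of the fits, for CELF4 in the second table (0.12), for COL6A5 (-1.14) and UNC79 (1.75) without the month 12 milk goat library and for CA4 (-1.57) without the month 3 milk goat library. Named genes with ratios of opposite sign in the months also changed sign, with no call, when the effect rested on month 3, such as TCHHL1 (-1.14), FOSB (-0.69), GPR3 (0.46) and CHGA (0.22) without the month 12 milk goat library, and their sign also changed without the month 12 cashmere goat library. Of 645 recomputed list medians 20 changed sign. Beyond the settings' own construction, the cause of these changes was not tested.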

Other observations

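Some called genes outside the lists and the rule are given as values, chosen after they were seen. No list was tested for these, so they stand for single genes. SLC7A1, a transporter of arginine and lysine, was higher at months 3 and 12, with 46.1 and 80.8 CPM in cashmere goats, against 14.6 and 8.26 CPM in milk goats (log2 fold change 2.45 ± 0.40, edgeR adjusted p = 0.0217). SLC7A8, a transporter of neutral amino acids, had 36.8 and 101 CPM in cashmere goats, against 11.5 and 4.75 CPM in milk goats (2.98 ± 0.56, adjusted p = 0.0363), and SLC7A5 had 99.7 and 212 CPM, against 37.1 and 65.3 CPM (1.56 ± 0.31, adjusted p = 0.0414). SLC7A11, of the same family, was not called (adjusted p = 0.0668). ASS1, argininosuccinate synthase, had 23.8 and 20.7 CPM in cashmere goats, against 6.75 and 6.95 CPM in milk goats (1.70 ± 0.26, adjusted p = 0.0182). GJA1, a gap junction protein, had 888 and 1604 CPM in cashmere goats, against 280 and 209 CPM in milk goats (2.30 ± 0.40, adjusted p = 0.0265). GJB2, another, had 237 and 578 CPM, against 74 and 71.7 CPM (2.35 ± 0.37, adjusted p = 0.0207). At months 6 and 9 the log2 fold change was 0.23 for SLC7A1, 0.73 for SLC7A8 and 0.33 for SLC7A5. It was -1e-04 for ASS1, 0.63 for GJA1 and 0.56 for GJB2, and none of these was called. Their relation to the hair transcripts by which the months were chosen was not tested.

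Among the lower genes, IFT74, a carrier of cargo in the cilium, had 39.1 and 48.2 CPM in cashmere goats at months 3 and 12, against 110 and 159 CPM in milk goats (-1.61 ± 0.21, adjusted p = 0.0117). AHI1, of the base of the cilium, had 34.7 and 40.7 CPM in cashmere goats, against 74.9 and 155 CPM in milk goats (-1.52 ± 0.25, adjusted p = 0.0217), whereas TMEM231, also of the ciliary base, was higher. HOXC9, a homeobox gene of body position, had 36.7 and 28.5 CPM in cashmere goats, against 88.1 and 135 CPM in milk goats (-1.75 ± 0.28, adjusted p = 0.0217), and HOXB7 had 20.7 and 24.6 CPM, against 52.4 and 88.5 CPM (-1.59 ± 0.23, adjusted p = 0.0147). At months 6 and 9 neither was called, with log2 fold changes of -1.65 for HOXC9 and -1.45 for HOXB7. The labels used here do not give the body site of the skin, so site and breed cannot be told apart. ASIP, the agouti signal of coat colour, had 76.2 and 73.8 CPM in cashmere goats, against 139 and 181 CPM in milk goats (-1.08 ± 0.22, adjusted p = 0.0463).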
